A study of Mus musculus with 12 samples.

Results

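Aquaporins are membrane channels that let water pass along osmotic gradients, and the signal of 10 of them was compared here between the turns of the mouse cochlea. The members were the non-control probes whose gene name in the array files is Aqp1, Aqp2, Aqp3, Aqp4, Aqp5, Aqp6, Aqp7, Aqp8, Aqp9 or Aqp11. All 10 names were on the array, with 47 of its 165984 probes and 10 of its 19506 gene names. RNA came from the apex, the middle and the base of cochleae of C57BL/6 mice 6 weeks old, with no treatment and 25 ng of total RNA per sample. Each turn was measured on 4 single-color Agilent exon arrays, 12 in all, and the labels name no modified allele. The pieces held lateral wall, sensory epithelium (organ of Corti) and spiral ganglion together, so each value is an average over many cell types, in which fewer cells of a type and less RNA per cell cannot be told apart. The 4 arrays of a turn lay on a slide of their own, so turn and slide cannot be told apart. The labels give 4 mice in all for the 12 samples, so samples of different turns must share mice. The labels do not say which samples do, so this pairing was left out of the main fit. The 12 arrays were fitted as independent, and p-values measure the spread between these samples.

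An aquaporin is built as a tetramer in which each subunit holds its own pore, and each pore is lined by short loops with the box asparagine-proline-alanine. The classical members carry mainly water (Aqp1, Aqp2, Aqp4, Aqp5, and also Aqp6 and Aqp8, which pass other small solutes), the aquaglyceroporins also carry glycerol (Aqp3, Aqp7, Aqp9), and Aqp11 is a distant member found mostly on membranes inside the cell. In the cochlea, where potassium-rich endolymph faces ordinary perilymph, Aqp4 is known from supporting cells, Aqp5 from outer sulcus cells and Aqp1 from fibrocytes of the spiral ligament.

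The array reads each gene with 60-base probes in its exons, and the sequences below let the probes of different aquaporins be compared. The capitals mark the codons of the asparagine-proline-alanine box, spelled AACCCNGCN or AATCCNGCN, which lie in 1 probe each of Aqp1, Aqp2, Aqp3, Aqp4, Aqp5 and Aqp6. Of all probes on the array, 0.591% held these letters on the sense strand and 0.452% on the opposite strand, against 12.8% and 0% of the 47 aquaporin probes. Probes are numbered from the start of the transcript, positions are on mm9 (NCBI37), and each sequence is the sense strand, 5′ to 3′.
Aqp1 probe 3, chr6:55295828-55295887, plus strand: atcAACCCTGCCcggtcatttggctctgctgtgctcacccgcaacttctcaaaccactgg
Aqp2 probe 3, chr15:99413552-99413611, plus strand: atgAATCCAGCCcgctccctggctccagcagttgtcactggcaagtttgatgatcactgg
Aqp5 probe 3, chr15:99423699-99423758, plus strand: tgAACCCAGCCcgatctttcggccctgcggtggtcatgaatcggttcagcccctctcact
Aqp6 probe 3, chr15:99433421-99433480, plus strand: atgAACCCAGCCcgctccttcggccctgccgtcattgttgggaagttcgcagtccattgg
Aqp3 probe 5, chr4:41040861-41040920, minus strand: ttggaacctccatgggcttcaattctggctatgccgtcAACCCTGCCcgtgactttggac

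Lined up on the box, the 15 pairs of these 6 probes shared between 49.2% (Aqp2 and Aqp5, 59 bases) and 78.9% (Aqp4 and Aqp5, 38 bases) of their bases. Aqp2 and Aqp6 shared 68.3% of 60 bases and Aqp5 and Aqp6 shared 61.0% of 59 bases. No pair of the 6 probes had more than 13 identical bases in a row. Probe 3 of Aqp6 shared a stretch of 20 bases with a probe of Mip, the lens aquaporin. No other aquaporin probe shared a stretch of that length with a probe of a gene outside the members. Probes of different members were not searched against each other in this way. Aqp2, Aqp5 and Aqp6 lie side by side on chromosome 15, with 7065 bases between the nearest probes of Aqp2 and Aqp5 and 6974 between those of Aqp5 and Aqp6. Aqp7 and Aqp3 lie 47589 bases apart on chromosome 4.

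The next sequences are 1 probe each of Aqp1, Aqp5 and Aqp11, the members with called differences whose sequence is given here, and none holds the box.
Aqp1 probe 1, chr6:55286652-55286711, plus strand: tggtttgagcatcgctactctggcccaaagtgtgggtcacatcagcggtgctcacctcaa
Aqp5 probe 2, chr15:99423126-99423185, plus strand: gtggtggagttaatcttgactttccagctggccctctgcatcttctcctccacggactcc
Aqp11 probe 2, chr7:104877482-104877541, minus strand: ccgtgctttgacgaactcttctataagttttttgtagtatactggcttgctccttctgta

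The arrays of a turn resembled each other closely, with correlations between 0.991 and 0.995 over genes. Between 77.4% and 81.4% of the spots of an array were well above background, and no spot was saturated. Some arrays stood apart in marker genes of other tissues. Gfap, the filament of astrocytes, was at 416 on apex array 3 and between 16.3 and 46.6 on the others. S100a8, a neutrophil protein, ran from 202 to 11774 at the apex, highest on arrays 2 and 4, and from 268 to 586 at the base. The marker list of neurons and Schwann cells was higher on base array 3, at a mean log2 signal of 11.32, than on the other base arrays, at 9.92 to 10.63. Apex array 4 also stood above the other apical arrays in the lists of bone and cartilage (8.79 against 7.08 to 7.72), fat cells (5.30 against 4.54 to 4.77) and red cells (10.52 against 9.28 to 9.57). Ibsp, a bone matrix protein, was at 1836 there and between 57.3 and 312 on the other arrays. Without that array, apex minus base was 1.98 for Aqp4 (adjusted p = 5.4e-07 by limma), 1.00 for Aqp11 (adjusted p = 7.5e-05) and -1.04 for Aqp1 (adjusted p = 0.00033), and apex minus middle of Aqp5 was 0.79 (adjusted p = 0.0075).

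Whether the RNA of a member was detected at all differed sharply within the family. Of the 47 aquaporin probes, 27 (57.4%) were well above background on all 12 arrays and 13 (27.7%) on none, against 73.4% and 14.3% of all probes. Every probe of Aqp1 (4), Aqp2 (4), Aqp4 (4), Aqp5 (4) and Aqp11 (3) was above background on all 12 arrays, as were 4 of the 6 probes of Aqp8. In Aqp3, Aqp6 and Aqp7 the reading rested on few probes: 1 of 6, 2 of 5 and 1 of 5. No probe of Aqp9 was above background on all 4 arrays of any turn.

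**Figure D1:**
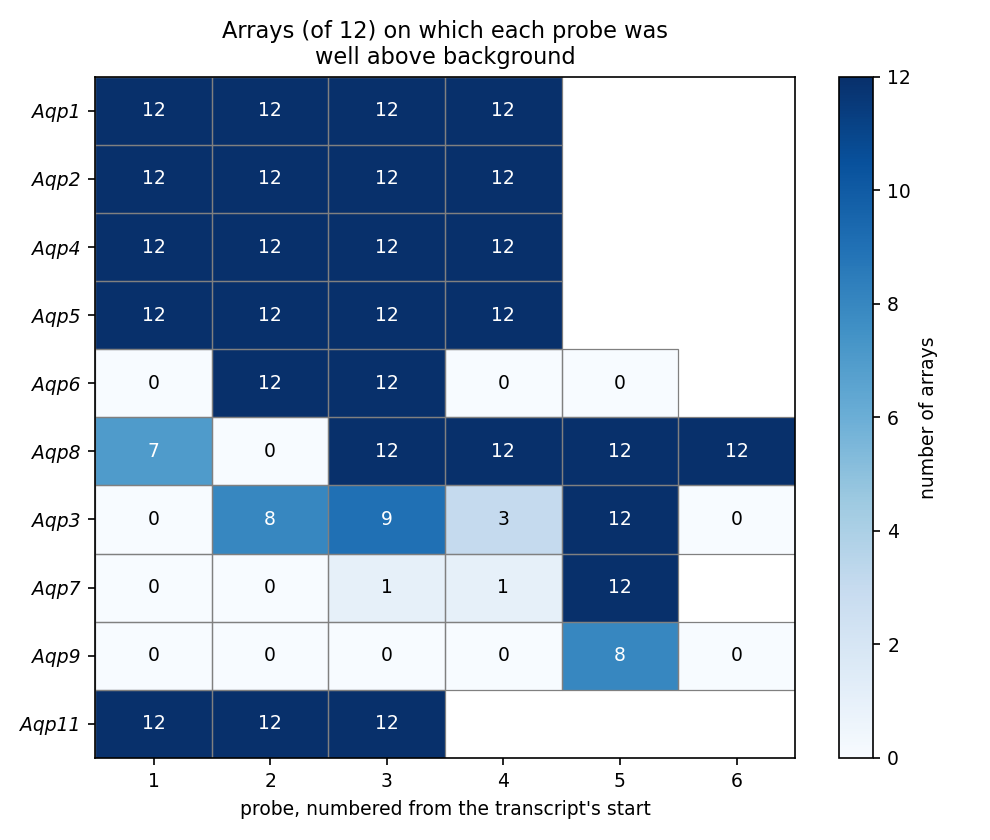
Each row is an aquaporin gene, each column a probe numbered from the start of the transcript, and the number and shade give on how many of the 12 arrays the probe was well above background (white without a number: no such probe). Aqp1, Aqp2, Aqp4, Aqp5 and Aqp11 are at 12 throughout, while Aqp7 is at 12 for probe 5 only and Aqp9 reaches 8 at most.

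The first question was which aquaporins differ between the 3 turns at all. Signal is given as fluorescence after each array was scaled to the same 75th percentile, a gene's value is the mean log2 value of its probes, and differences were tested with limma over all 12 arrays, with p adjusted over 19478 genes. The moderated F test called 5 of the 10 members, Aqp1, Aqp4, Aqp5, Aqp8 and Aqp11, at an adjusted p under 0.05. Among all genes tested 38.7% were called by that rule, so the share of members is near the background. With a difference of 2-fold or more as well, 1 of 10 members was called, Aqp4, against 4.69% of all genes.

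Apex and base were compared first. Aqp4 and Aqp11 were higher at the apex and Aqp1 was higher at the base, 3 of 10 members called against 39.2% of all genes. In 4 members, those 3 and Aqp2, the arrays of apex and base did not overlap, against 38.3% of all genes. Aqp4, Aqp11 and Aqp1 were also called in both comparisons with the middle, each time in the same order of turns. Of all genes, 1.6% were called in all 3 pairs and fell from apex to base and 2.16% did so and rose. The 3 comparisons share arrays, since each turn enters 2 of them, so they are not separate evidence for a gene.

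Between apex and middle, 5 of 10 members were called, Aqp4, Aqp5 and Aqp11 higher at the apex and Aqp1 and Aqp8 higher in the middle, against 12% of all genes (4.43% higher at the apex and 7.58% in the middle). The arrays of apex and middle did not overlap in those same 5 members, against 20.8% of all genes. The count of 5 fell to 2 without apex array 2 (4.97% of all genes called) or middle array 2 (7.08%). It fell to 3 without apex array 1 (6.69%) or 3 (7.21%) or middle array 1 (9.59%) or 4 (5.72%). Between middle and base, 4 of 10 members were called, Aqp4 and Aqp11 higher in the middle and Aqp1 and Aqp5 higher at the base, against 20.8% of all genes (11.6% higher in the middle and 9.18% at the base). Arrays did not overlap in those 4, against 24% of all genes. The median log2 difference over the 10 members was -0.01 for apex minus base, -0.21 for apex minus middle and 0.14 for middle minus base. Over all genes it was -0.04, -0.07 and 0.04.

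**Figure D2:**
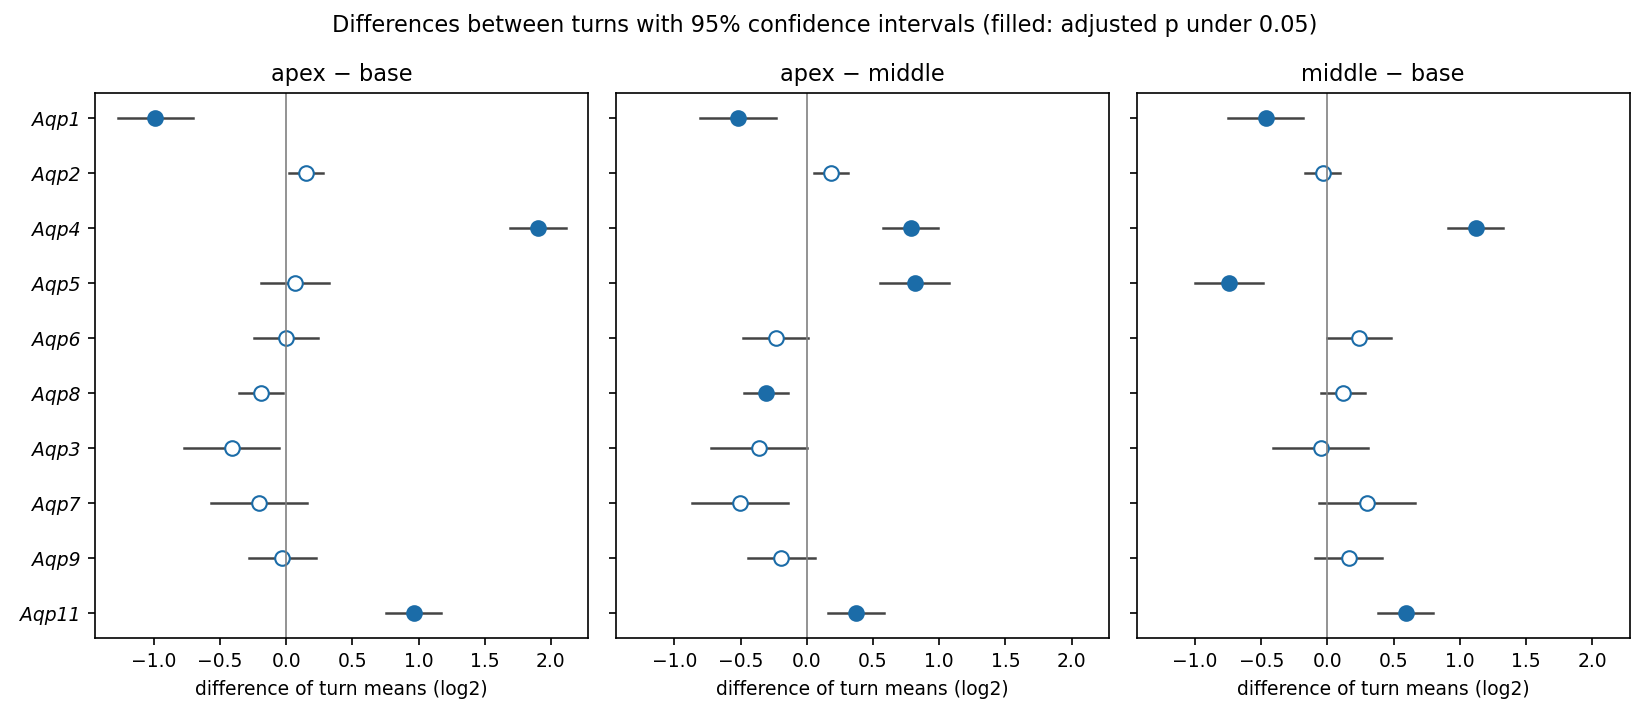
Each point is the log2 difference between the means of 4 arrays per turn for an aquaporin gene, with its 95% confidence interval from limma, and filled points have an adjusted p under 0.05. Aqp4 (1.90) and Aqp11 (0.96) lie to the right and Aqp1 (-0.99) to the left in apex minus base, where Aqp5 is near 0 (0.07, but -0.42 when arrays are scaled to spike-in probes).

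Scaling to the spike-in probes, RNA added in equal amounts to each labeling, moved the median of all genes to -0.52 for apex minus base, -0.28 for apex minus middle and -0.23 for middle minus base. Both scalings divide all signals of an array by the same factor, so that shift is common to all genes. Differences relative to the median gene are then the same under both scalings by construction, which favors neither. Whether the median gene itself differs between turns was not tested. Relative to the median gene, apex minus base was 1.94 for Aqp4, 1.00 for Aqp11, -0.95 for Aqp1 and 0.10 for Aqp5 on the log2 scale. No called difference of a member changed direction under this scaling, but apex minus base of Aqp11 was 0.48 (adjusted p = 0.0036) without subtracting the shift.

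Aqp4, the water channel of supporting cells and of glial endfeet, had the largest difference of the 10. Its signals were 455, 512, 526 and 396 (apex), 248, 294, 295 and 257 (middle) and 131, 126, 115 and 130.3 (base). All apical arrays were above all middle arrays, and all middle arrays above all basal ones. The log2 means were 8.88 ± 0.19, 8.09 ± 0.13 and 6.97 ± 0.08 (SD, n = 4). Aqp4 was 3.74-fold higher at the apex than at the base (95% interval 3.23 to 4.33, adjusted p = 2.9e-07 by limma). It was 1.72-fold higher at the apex than in the middle (adjusted p = 0.0011) and 2.17-fold higher in the middle than at the base (adjusted p = 4.3e-05). The middle lay 58.8% of the way from base to apex on the log2 scale.

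Each of the 4 Aqp4 probes, on chromosome 18, gave this order. Apex minus base ran from 1.56 for probe 4 to 2.29 for probe 2, and all 4 probes separated the arrays of apex and base. At probe 2 the signals were 318, 345, 347 and 261 (apex), 153, 197, 182 and 140.3 (middle) and 66.2, 63.2, 60.7 and 68.6 (base). The probes of a gene are not replicates, since they read the same RNA. Overlap of arrays per probe was counted for the aquaporin probes only, so no share of all probes stands beside it, here and for the members below. Without apex array 3, the one with high Gfap, apex minus base of Aqp4 was 1.85 (adjusted p = 2.4e-06).

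Aqp1, a water channel of fibrocytes, red cells and capillary walls, ran the other way. Its signals were 720.3, 675, 586 and 768 (apex), 1057, 1102, 869 and 911 (middle) and 1582, 1550.4, 1217 and 1131 (base). The 3 turns did not overlap, and the base spread most. The log2 means were 9.42 ± 0.17, 9.94 ± 0.16 and 10.40 ± 0.24 (SD, n = 4). Aqp1 was 1.98-fold higher at the base than at the apex (95% interval 1.63 to 2.42, adjusted p = 0.00017 by limma). Middle over apex was 1.43-fold (adjusted p = 0.028) and base over middle 1.38-fold (adjusted p = 0.026). Both smaller steps were lost in some settings: leaving out apex array 1, 2 or 3 or middle array 1, 2 or 4 ended the first, with an adjusted p of up to 0.074, and leaving out middle array 3 or 4 or base array 1 or 2 ended the second, with up to 0.079.

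Probes of Aqp1 differed in how far they moved. Apex minus base was -1.09 at probe 1, -0.96 at probe 2, -0.47 at probe 3 and -1.43 at probe 4. Probe 3 is the one with the box shown above, and it was the only one of the 4 that the F test did not call (adjusted p = 0.10), while 3 of 4 probes separated the arrays of apex and base. At probe 4, in the last exon read, the signals were 6556, 5805, 5986 and 9167 (apex), 12739, 13396, 9775 and 11999 (middle) and 19899, 21100.4, 16591 and 15808 (base). Those arrays did not overlap in any pair of turns.

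Aqp5, the water channel of glands and of outer sulcus cells, was lowest in the middle. Its signals were 1883, 1984, 1902 and 2037 (apex), 923, 1052, 1244 and 1253 (middle) and 1626, 1840.3, 1751 and 2285 (base). Every middle array was below every array of the ends, and the ends overlapped. The log2 means were 10.93 ± 0.05, 10.12 ± 0.21 and 10.86 ± 0.21 (SD, n = 4). The apex was 1.76-fold above the middle (95% interval 1.47 to 2.10, adjusted p = 0.0029 by limma) and the base 1.68-fold above it (1.40 to 2.00, adjusted p = 0.0018). Apex minus base was 0.07 (95% interval -0.19 to 0.33, adjusted p = 0.71), but under spike-in scaling it was -0.42 (adjusted p = 0.023). A middle turn below both ends, with both comparisons called, was seen in 34 of 19478 genes, or 0.175%.

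All 4 Aqp5 probes showed this dip without overlap of arrays, a count that was not made over all probes of the array. Apex minus middle ran from 0.59 at probe 2, printed above, to 0.98 at probe 4, and middle minus base from -0.87 at probe 1 to -0.56 at probe 2. Aqp2 and Aqp6, the neighbors of Aqp5 on chromosome 15, had no called difference between turns in this fit.

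**Figure D3:**
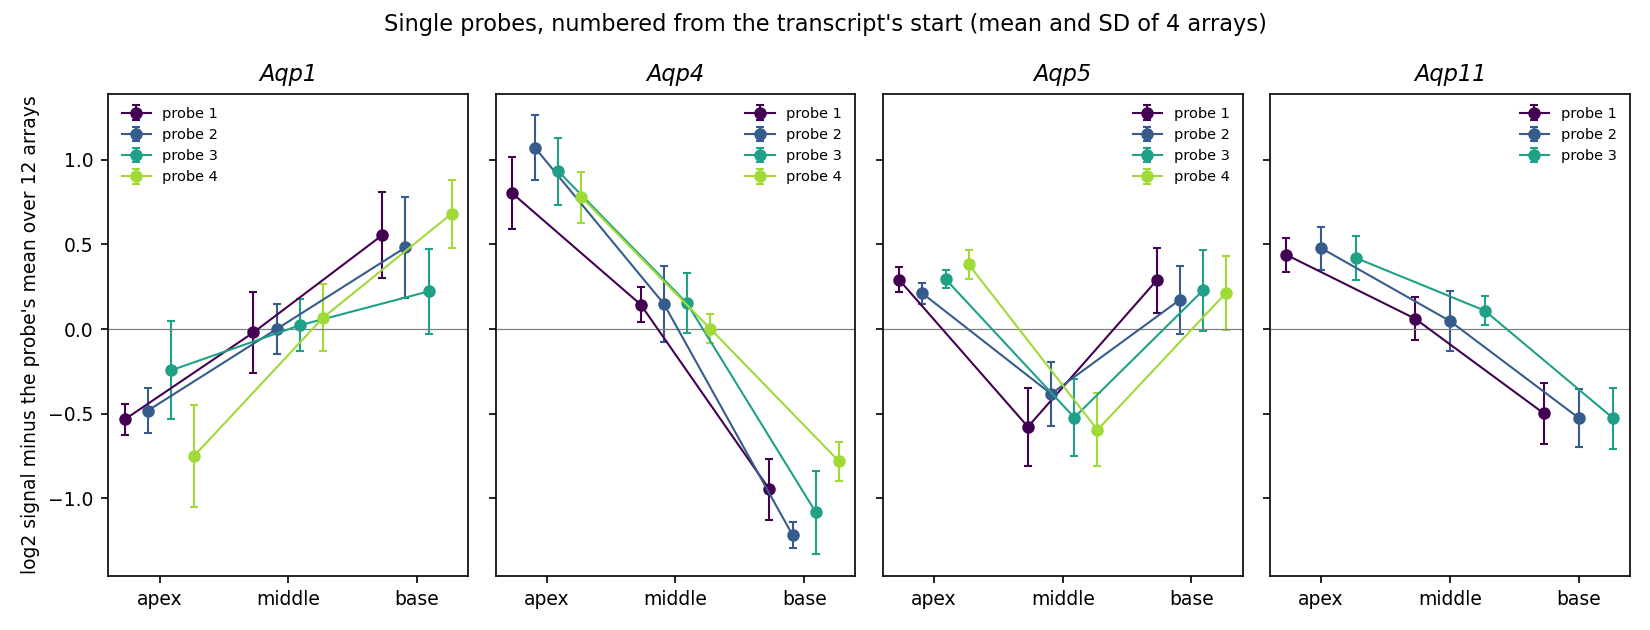
For Aqp1, Aqp4, Aqp5 and Aqp11, each line is a probe, with its log2 signal minus its own mean over 12 arrays as the mean and SD of 4 arrays per turn. All probes of Aqp4 and Aqp11 fall from apex to base, those of Aqp1 rise with probe 3 the flattest, and those of Aqp5 dip in the middle.

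Aqp11, whose loss in mice is known to give cystic kidneys, was highest at the apex. Its signals were 1878, 2001, 1731 and 1676 (apex), 1287, 1349, 1551 and 1441 (middle) and 840.0, 878, 925 and 1109 (base). No arrays of different turns overlapped. The log2 means were 10.83 ± 0.12, 10.45 ± 0.12 and 9.87 ± 0.18 (SD, n = 4). The apex was 1.95-fold above the base (95% interval 1.69 to 2.25, adjusted p = 2.7e-05 by limma), 1.29-fold above the middle (adjusted p = 0.030), and the middle 1.51-fold above the base (adjusted p = 0.0021). The step from apex to middle was lost without apex array 1, 2 or 3 or middle array 1, 2 or 4, with an adjusted p of up to 0.092, and under spike-in scaling (adjusted p = 0.31).

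The 3 Aqp11 probes moved nearly alike. Apex minus base was 0.94, 1.00 and 0.95 at probes 1, 2 and 3, and each probe separated the arrays of apex and base. The middle lay 61.3% of the way from base to apex for Aqp11 and 47.4% for Aqp1.

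Aqp2, the vasopressin-regulated channel of the kidney collecting duct, was above background on every array. Its signals were 874, 915, 832 and 908 (apex), 725, 765, 765 and 854 (middle) and 763, 831, 790.1 and 803 (base). Apex and base did not overlap, narrowly, and the middle overlapped both. Apex minus base was 0.15 (95% interval 0.02 to 0.28, adjusted p = 0.069 by limma) and apex minus middle 0.18 (adjusted p = 0.064), and both turned negative under spike-in scaling, to -0.34 (adjusted p = 0.0078) and -0.03. Averaged, for all genes, over the bright probes alone (those that passed the background test on all 4 arrays of at least 1 turn), these differences passed, at adjusted p = 0.049 and 0.048, and with the sample number as a block at 0.041 and 0.039. All 4 Aqp2 probes are bright, so its differences stayed at 0.15 and 0.18 with bright probes alone. Only the values of other genes, and with them the adjusted p, changed there.

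The Aqp2 probes were unequal, and the largest difference was at probe 4. At that probe, nearest the end of the transcript, the signals were 1379.7, 1579, 1374 and 1474 (apex), 839, 942, 991 and 1197 (middle) and 907, 953, 1047 and 1289.9 (base). Every apical array was above all others there. Apex minus base was 0.48 (adjusted p = 0.014 over all probes) and apex minus middle 0.56 (adjusted p = 0.031), while at probes 2 and 3 apex minus base was -0.09 and -0.01. Probe 1 also separated the arrays of apex and base, with an apex minus base of 0.22 (adjusted p = 0.17) and an apex minus middle of 0.25 (adjusted p = 0.19). Across the family the F test called 18 of 47 probes (38.3%), against 30.4% of all probes, and the 18 include probe 4 of Aqp9, which was above background on no array.

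Aqp8, a channel for water and ammonia, was dim but readable. Its signals were 55.5, 53.3, 56.2 and 45.8 (apex), 63.4, 64.2, 62.1 and 71.1 (middle) and 59.3, 62.7, 55.6 and 62.8 (base). The middle was above the apex on every array, and the base overlapped both. Apex minus middle was -0.31 (adjusted p = 0.025 by limma). With the 4 probes well above background alone, the difference was -0.26 and no longer passed (adjusted p = 0.057), as also without apex array 2 or middle array 2 or 4 (up to 0.074). Over its 6 probes apex minus middle ran from -0.70 at probe 6 to 0.27 at probe 3. Probe 6 was the only one that the F test called (adjusted p = 0.0064 over all probes). Probe 3 was at 336 on apex array 2 and between 103 and 124 on the other apical arrays.

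Aqp6, a channel of intracellular vesicles in the kidney, was read by probes 2 and 3. At probe 3, the one with the box, the signals were 1044, 941, 853 and 952 (apex), 866, 1126, 893 and 1005 (middle) and 1062, 1240.1, 1224 and 829.8 (base). The turns overlapped. With these 2 probes alone apex minus base was -0.11 (adjusted p = 0.25 by limma). Over all 5 probes, 3 of them above background on no array, it was 0.00, with values between -0.48 and 0.08 over the settings and arrays left out. With the sample number as a block, apex minus middle of Aqp6 (-0.24) and middle minus base (0.24) passed, at adjusted p = 0.038 and 0.026, beside 17% and 25.9% of all genes. Those values average all 5 probes. With the 2 bright probes alone and no block, apex minus middle was -0.052 (adjusted p = 0.68 by limma). Middle minus base was then -0.058 (adjusted p = 0.61), of the opposite sign. Probe 3 is the one that shares 20 bases with a Mip probe, and the part of Mip RNA in its signal was not tested.

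Among the aquaglyceroporins, Aqp3, the basolateral channel of many epithelia, was above background on all arrays at probe 5 only. There the signals were 318, 238, 216 and 266 (apex), 265, 238, 259.8 and 256 (middle) and 277, 246, 253 and 238 (base). The turns overlapped, and apex minus base at that probe was 0.02 (adjusted p = 0.90 over all probes). Over all 6 probes apex minus base was -0.41 (adjusted p = 0.069 by limma), a value that rests on probes near background.

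Aqp7, the glycerol channel of fat cells, was read by its last probe alone. At probe 5 the signals were 9734, 9273, 8080.0 and 9091 (apex), 10808, 10906, 10429 and 10596 (middle) and 10676, 11438, 10178 and 10523 (base). The apex was below both other turns on every array. Apex minus base at that probe was -0.25 (adjusted p = 0.016 over all probes), while its other 4 probes were above background on at most 1 of the 12 arrays each. Over all 5 probes the F test did not call Aqp7 (adjusted p = 0.075 by limma). With bright probes alone, here probe 5, it did (adjusted p = 0.0070 by limma). In that fit the adjusted p was 0.0051 for apex against base and 0.020 for apex against middle. The other 4 probes of the transcript stayed near background, and whether the signal of probe 5 is Aqp7 RNA was not tested.

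Aqp9, a glycerol channel of liver and white blood cells, was not well above background as a gene. Its values lay between 7.83 and 11.8 on all 12 arrays, so no fold is given. Probe 5 was above background on 8 arrays, 3 at the apex, 3 in the middle and 2 at the base. Probe 4, with mean signals of 6.83 (apex), 10.4 (middle) and 7.29 (base), was called by the F test (adjusted p = 0.0016 over all probes) but was above background on no array.

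**Figure D4:**
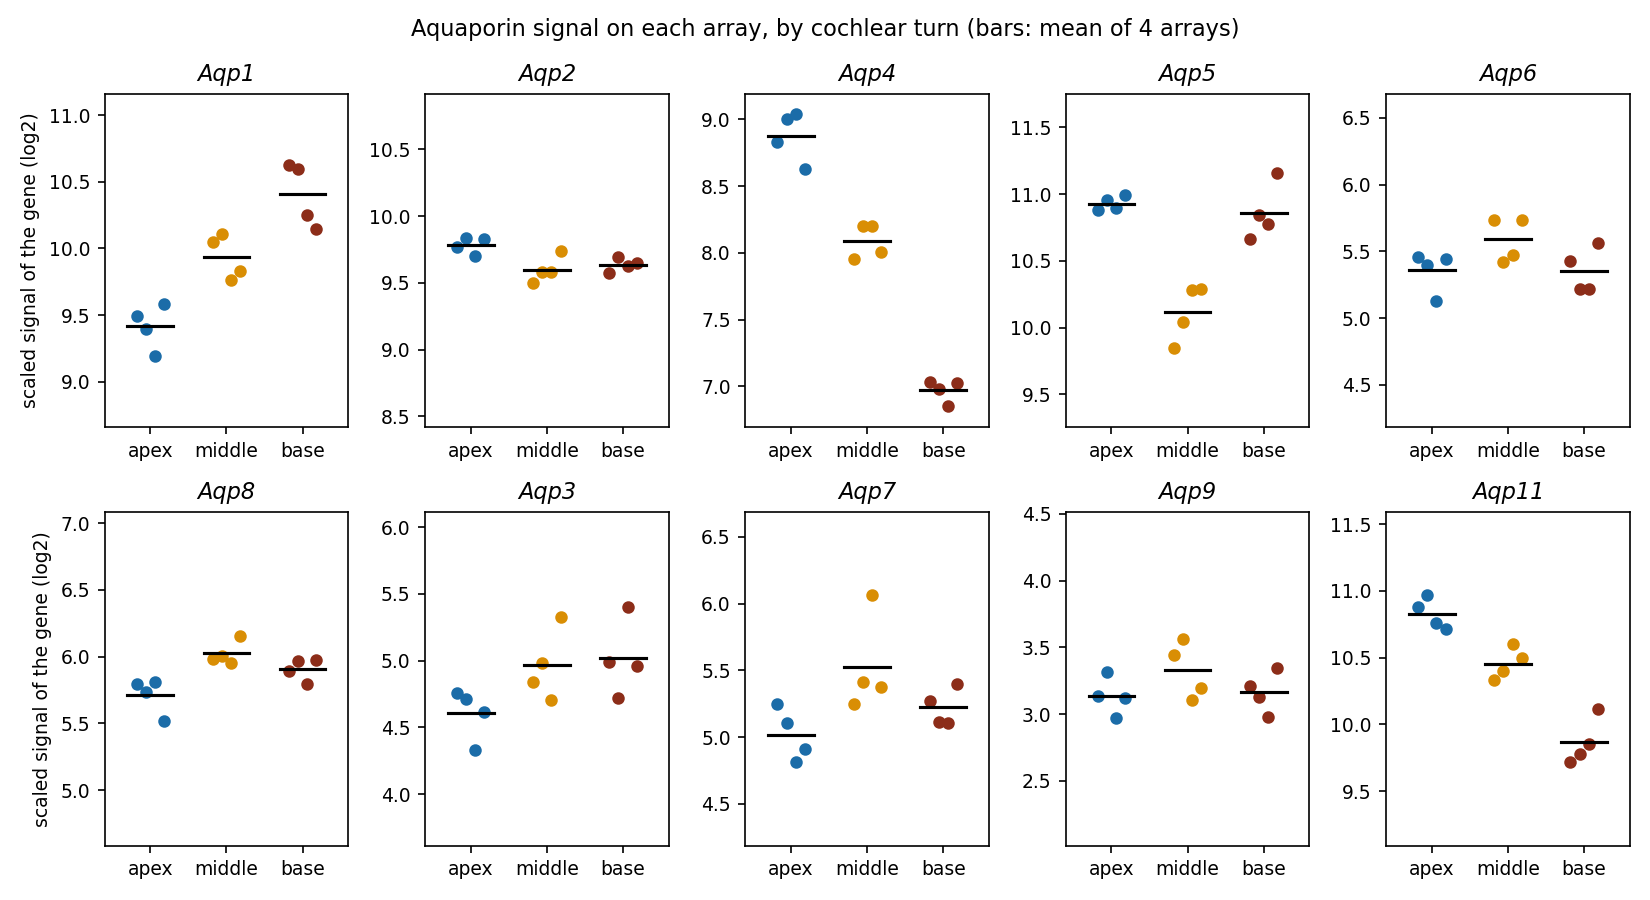
Each panel is an aquaporin gene and each point an array, with the scaled log2 signal on an axis that spans the same range in every panel and bars at the mean of 4 arrays per turn. Levels of different panels cannot be compared, since each gene has its own probes. Aqp4 and Aqp11 step down from apex to base, Aqp1 steps up, Aqp5 is lowest in the middle, and Aqp9 stays at background.

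Genes that mark the cells of the pieces moved with some of these results. Of all genes, 17.6% were called higher at the apex than at the base and 21.6% higher at the base, the shares beside the marker counts here and below. Beside Aqp1, 7 of 8 markers of spiral ligament fibrocytes were higher at the base than at the apex and 1 higher at the apex, with list means (log2) of 12.34 to 12.57 at the apex and 12.48 to 12.61 at the base. Of the red cell markers limma called 0 of 7 (1 at an unadjusted p under 0.05, and 0 with unmoderated tests). Of 7 endothelial markers, 2 were higher at the apex, of which Kdr turned negative under spike-in scaling, and 3 at the base, with list means of 8.57 to 8.70 at the apex and 8.56 to 8.71 at the base. The red cell list spanned 9.28 to 10.52 at the apex and 9.33 to 10.18 at the base, and Rhag was not well above background on all 4 arrays of any turn. Their part in the difference of Aqp1 was not tested.

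Beside Aqp4 and Aqp11, 5 of 9 markers of supporting cells were higher at the apex and 3 at the base, with list means of 11.16 to 11.28 against 10.16 to 10.41. The gap between these means comes in large part from 1 of the 5. That gene was far higher at the apex than in the other turns and nearly level between middle and base. All 8 hair cell markers were higher at the apex, with list means of 7.48 to 7.74 against 5.83 to 6.29, and so were all 7 markers of neurons and Schwann cells, though Mbp turned negative under spike-in scaling. Of 5 astrocyte markers, 2 were higher at the apex and 1 at the base, and 1 of the former, Slc1a2, turned negative under spike-in scaling. The astrocyte list means were 9.91 to 10.84 at the apex and 9.74 to 9.96 at the base. The part of these cells in the differences of Aqp4 and Aqp11 was not tested.

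Beside Aqp5, 2 of 6 markers of outer sulcus and root cells were called by the F test, near the share of 38.7% of all genes. Anxa1, annexin A1, dipped as Aqp5 did, with 3603, 3849, 4191 and 4154 (apex), 2078, 2579.6, 3062 and 3324 (middle) and 3679, 4346, 3884 and 5027 (base). Its apex minus middle was 0.54 (adjusted p = 0.035 by limma) and its middle minus base -0.63 (adjusted p = 0.011). Epyc, a proteoglycan, fell from apex to base instead, by 1.78 on the log2 scale (adjusted p = 6.9e-08), and the other 4 markers had adjusted F p of 0.15 or more. The list means were 10.24 to 10.30 at the apex, 9.89 to 10.10 in the middle and 9.93 to 10.13 at the base, and their part in the dip of Aqp5 was not tested.

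The remaining marker lists bear on what else the pieces held, and their counts stand beside 17.6% (apex) and 21.6% (base) of all genes. Of the stria vascularis markers 6 of 8 were higher at the base and none at the apex, of bone and cartilage 3 of 7 and none, and of skeletal muscle 2 of 5 and none. Of the middle ear mucosa markers 2 of 5 were higher at the apex, of neutrophils and marrow 1 of 8, and of fat cells 0 of 6 by limma (1 at an unadjusted p under 0.05, and 0 with unmoderated tests), where Fabp4 and Lep, both defining genes of fat, were not well above background on all 4 arrays of any turn. Fabp4 was at 114 on apex array 4 and between 10.3 and 29.1 on the others. The bone list mean ran from 7.08 to 8.79 at the apex and from 7.82 to 8.50 at the base. The neutrophil list mean ran from 6.31 to 10.41 at the apex and from 6.37 to 6.82 at the base. Ltf is on both the mucosa and the neutrophil list, so these lists are not separate. Its signals were 79.3, 192, 147 and 378 (apex) and 53.4, 40.5, 62.0 and 44.9 (base). Beside Aqp7, the fat list mean was 4.54 to 5.30 at the apex and 4.41 to 4.76 at the base.

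Genes that work with aquaporins were counted as lists of 64 genes in all, chosen for their known roles. The F test called 37 of them (57.8%), against 38.7% of all genes. All 64 but Avpr1a had a bright probe, and a fit of bright probes alone called 48.8% of all its genes. Apex against base, 17 of the 64 were higher at the apex and 24 at the base, where 17.6% and 21.6% of all genes were called. Under spike-in scaling 13 of the called genes changed sign and the counts were 3 and 46 of 64, beside 774 and 14305 of all 19478 genes. Their median apex minus base was -0.07, beside -0.04 over all genes.

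In the complex that holds Aqp4 in the membrane, 4 of 11 genes were higher at the apex and 4 at the base. Sgcb, a sarcoglycan, differed by -0.50 (apex minus base, adjusted p = 0.00013 by limma) and Sntb2, a syntrophin, by -0.38 (adjusted p = 0.00059). Dag1, dystroglycan, differed by 0.39 (adjusted p = 0.00023), but by -0.10 under spike-in scaling, where all 4 genes higher at the apex changed sign.

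On the vasopressin and cAMP route that moves Aqp2 to the membrane, 5 of 13 genes were higher at the apex and 2 at the base. Akap7, an anchor of protein kinase A, differed by 0.45 (adjusted p = 0.00042 by limma), Adcy3, an adenylyl cyclase, by 0.35 (adjusted p = 0.0026) and Stx4a, a syntaxin, by -0.42 (adjusted p = 0.0018). All 5 differences toward the apex turned negative under spike-in scaling. Of the receptors, Avpr2 was not called (adjusted p = 0.50 by the F test of limma) and Avpr1a was not well above background on all 4 arrays of any turn.

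Among genes of glycerol and fat handling, 4 of 7 were higher at the base and none at the apex. Gpd1, a glycerol-3-phosphate dehydrogenase, had 87.3, 98.5, 103 and 134 (apex), 117, 135, 167 and 153 (middle) and 229, 256, 248 and 343 (base). Apex minus base was -1.35 for Gpd1 (adjusted p = 0.0001 by limma), -1.01 for Gpd2, its mitochondrial partner (adjusted p = 8.4e-06), -0.89 for Pnpla2, a triglyceride lipase, and -0.38 for Gyk, glycerol kinase. Plin1, Lipe and Cd36 were not called.

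Among genes of cell volume and osmotic stress, 6 of 16 were higher at the apex and 5 at the base. Subunits of the volume-regulated anion channel were called in opposite directions. Lrrc8b had 802, 942, 776 and 831 (apex), 387, 463, 564 and 493 (middle) and 311, 273, 327 and 403 (base), an apex minus base of 1.36 (adjusted p = 2.4e-05 by limma). Lrrc8d differed by -1.25 (adjusted p = 8.9e-06) and Lrrc8c by 0.56 (adjusted p = 0.00014). The osmotic cation channel Trpv4, known to act with aquaporins in volume control, differed by -0.37 (adjusted p = 0.0081). Of the 6 genes higher at the apex, 4 changed sign under spike-in scaling, among them the osmotic transcription factor Nfat5, from 0.34 to -0.15.

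Among genes of ion transport that water follows, 2 of 15 were higher at the apex and 8 at the base. The potassium channel Kcnj10 differed by -0.78 (apex minus base, adjusted p = 2.5e-05 by limma) and the cotransporter Slc12a2 by -0.52 (adjusted p = 8.9e-05). The bicarbonate cotransporter Slc4a4 differed by 1.29 (adjusted p = 0.00098) and the potassium chloride cotransporter Slc12a7 by 0.72 (adjusted p = 5.3e-05). The epithelial sodium channel genes Scnn1a, Scnn1b and Scnn1g were not called.

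**Figure D5:**
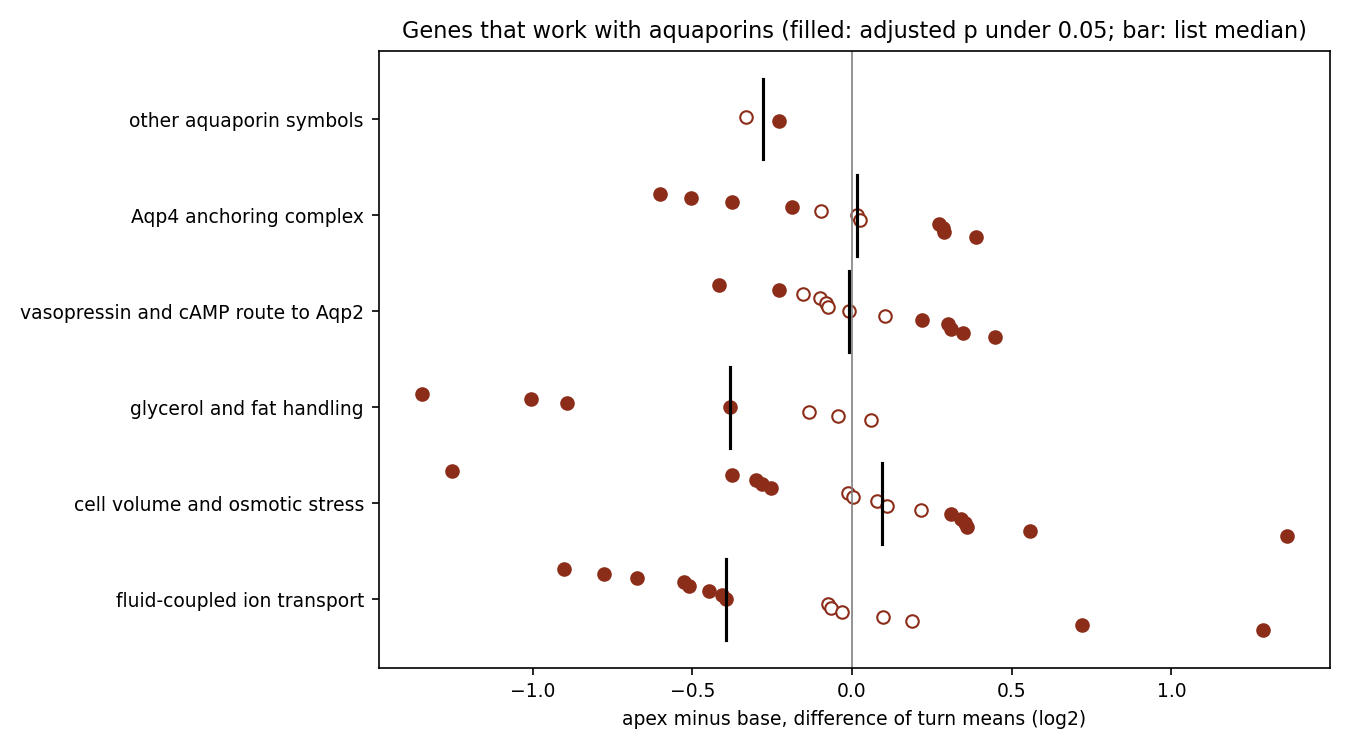
Each point is a gene of a list, placed by its log2 difference between the apex and the base (means of 4 arrays each), filled where the adjusted p was under 0.05, and the bar is the list median. Glycerol genes and ion transport genes lie mostly to the left and volume genes spread to both sides, and scaling to spike-in probes, which turned 13 filled points around, moves all points left by the same amount.

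The genes whose pattern over the 12 arrays was most like that of a member were found by Pearson r among 16493 genes. The arrays of a turn share a slide, so these values are a description. For Aqp4 they were Ppapdc1a (r = 0.986), Tox, Rabgap1l, Tubb2b and Trim45 (0.984), and for Aqp11 Tekt1 (0.987), Rpgr, Hdc, Trim45 and Fam198a (0.978). Trim45 was on both lists. For Aqp1 they included Mterfd1 (0.983), Chmp1b, Cdc42se2 and Foxc2 (0.971), and for Aqp5 Anxa1 (0.948), Phyhd1, Atp6v1c2, Expi and Ezr (0.921). Ppapdc1a and Tekt1 had apex minus base of 2.17 and 2.07, Foxc2 had -1.04, and Expi had apex minus middle of 0.82.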

How the data were processed

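RNA of 12 samples, 4 per cochlear turn, was measured on single-color exon arrays. The deposited values are spot intensities that the authors extracted with Agilent Feature Extraction 10.7.3.1, with the background subtracted and no scaling between arrays. The deposited series table held the same 2170560 values. Positions are on mm9, as the array files give them, and no genome was at hand to remap probes.

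R 4.3.3 was used, with data.table (version 1.17.8). Of 180880 spots, 7914 controls were left out, and 326 probes with an outlier or manual flag on any array were dropped, none of them an aquaporin probe. Each array was scaled to a 75th percentile of 641 (534 to 722 before), as in the study's methods, log2 was taken, and the probes of a gene name were averaged, with no pseudocount and no filter. The number of arrays, 4 per turn, limits the precision. The methods name 1-way analysis of variance; here limma 3.58.1 gave moderated F tests and contrasts from a fit of the 12 arrays, and p was adjusted by Benjamini-Hochberg over 19478 genes or 165658 probes. A gene was called at an adjusted p under 0.05. The median within-turn SD of all genes was 0.13 log2 units. Scripts were tested on simulated data.

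The text names all 10 members, the 5 genes most like each member that differed 1.5-fold or more, up to 4 genes per list with the smallest F p, and genes whose values stand beside a member's result. A few genes that this rule would name are not reported here. Further list genes that are named, such as those not called, were chosen after their values were seen. Members and lists were chosen with earlier results of these data known. Alternatives were quantile and spike-in scaling, normexp background correction, bright probes only, 16 added to each signal, the median of probes, flagged probes kept, the deposited series table, unmoderated tests, limma's trend and robust options, only the arrays of 2 turns, the sample number as a block and each array left out. Differences relative to the median gene, sign changes of list genes under the scalings, and the overlap of arrays per probe were chosen after seeing the data.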

Additional observations from a re-analysis of the deposited data

How the results depend on the processing

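Over 24 alternatives, the 3 differences of Aqp4, both of Aqp5, and apex against base of Aqp1 and Aqp11 kept their direction and stayed called. Some of these could not change the differences. The deposited series table holds the same values, no flagged probe is an aquaporin probe, and all probes of these genes are bright. The unmoderated, trend and robust, block and 2-turn fits also keep the differences and change only the p-values. The smaller steps of Aqp1, Aqp11 and Aqp8 did not: apex against middle was lost in 7 alternatives for Aqp1, 7 for Aqp11 and 5 for Aqp8, middle against base in 6 for Aqp1 and 1 for Aqp11 (spike-in scaling, adjusted p = 0.057 by limma). Under spike-in scaling 10 members were called across the turns (74.3% of all genes), 10 for apex against base (77.4%) and 8 for apex against middle (40.6%), with 36 probes (58.2% of all probes). It also moved the split of all called genes in apex against base from 3429 toward the apex and 4201 toward the base to 774 and 14305, and quantile normalization to 2906 and 4990. For apex against base, quantile normalization called 6 members (40.5% of all genes), and bright probes only (50.7%) and the median of probes (34.9%) called 5 each. With 1 array left out, 5 to 6 members were called across the turns (31.4% to 44.6% of all genes). For apex against base 3 to 5 were called (33.3% to 39.3%), with 5 without middle array 4 (38.4%). For apex against middle 2 to 5 were called (4.97% to 18.1%). The 2 came without apex array 2 or middle array 2, and 3 came without apex array 1 or 3 or middle array 1 or 4. For middle against base 3 to 4 were called (13.6% to 24.3%). Single probes called were 17 to 21 (22.5% to 33.7% of all probes), and of the genes that work with aquaporins 33 to 40. The cause of these changes was not tested.

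Changes of sign came only in differences not called before the change. Under spike-in scaling they were -0.34 (Aqp2), -0.42 (Aqp5) and -0.48 (Aqp6) for apex minus base, -0.031 for apex minus middle of Aqp2, and -0.034 (Aqp6), -0.15 (Aqp8) and -0.11 (Aqp9) for middle minus base. Quantile normalization gave -0.11 for apex minus base of Aqp6, and -0.0090 (Aqp8) and -0.022 (Aqp9) for middle minus base. Normexp gave -0.026 (Aqp6) and 0.0034 (Aqp9) for apex minus base and 0.056 for middle minus base of Aqp3. Bright probes only gave 0.075 for apex minus middle of Aqp3, -0.11 for apex minus base of Aqp6, and -0.058 (Aqp6) and -0.0015 (Aqp7) for middle minus base. Adding 16 gave -0.031 for apex minus base of Aqp6. The median of probes gave 0.011 for middle minus base of Aqp2, and -0.11 (Aqp6) and 0.040 (Aqp9) for apex minus base. With 1 array left out, apex minus base ran from -0.045 to 0.079 for Aqp6 and from -0.091 to 0.032 for Aqp9, and middle minus base from -0.17 to 0.076 for Aqp3.

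Samples of different turns share numbers in the labels. Over 12 same-number pairs the correlation of deviations ran from -0.04 to 0.23, with 6 over 0.1 and a mean of 0.095. Over 36 different-number pairs the mean was -0.031. The labels do not say which samples share a mouse, so the numbers were not taken to pair the samples in the main fit. For 8 of 12 arrays the best match in another turn had their number. With the number as a replicate block, 7 members were called across the turns (42.4% of all genes), 4 for apex against base (41.9%), 7 for apex against middle (17%) and 5 for middle against base (25.9%). The gains were Aqp2 and Aqp6 across the turns and for apex against middle, Aqp2 for apex against base and Aqp6 for middle against base. The values of Aqp6 average 5 probes, 3 of them above background on no array. The block called 19 probes (32.8% of all probes) and 42 of the genes that work with aquaporins. A slide block could not be fitted, since each slide holds 1 turn.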

Other observations

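Symbols outside the 10 members were read by few probes. Mip, the lens aquaporin, was above background on all arrays at 2 of 4 probes and Aqp12, a channel of pancreatic acinar cells, at 1 of 3. The F test called neither gene, with an adjusted F p of 0.077 and 0.19 by limma, although apex minus base of Mip was -0.23 at an adjusted p of 0.038. Probe 3 of Mip, above background on all 12 arrays, had mean signals of 463 (apex), 538 (middle) and 619 (base). It was called by the F test (adjusted p = 0.0030 over all probes), with an apex minus base of -0.42. Probe 1, the other bright probe of Mip, was not called (adjusted p = 0.92).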
